A study of Homo sapiens with 8 samples.

Results

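The genes described here encode 10 integrin subunits that epithelial cells are known to use for holding on to their surroundings: the 5 alpha subunits ITGA2, ITGA3, ITGA5, ITGA6 and ITGAV and the 5 beta subunits ITGB1, ITGB4, ITGB5, ITGB6 and ITGB8. They were picked by gene symbol out of 18638 gene models, each of which was counted in both cell lines of the study. The symbols were chosen from a textbook family with earlier results of these data in view, and the choice set no cut on a measured value. Their differences within each line are therefore a description, and no support is drawn from them.

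The study measured nascent RNA, that is RNA still attached to or close to the transcribing polymerase, by factory-seq, in which nuclei are opened gently, digested with nucleases and proteases, and the RNA freed from large transcription complexes is sequenced. The human colorectal carcinoma lines DLD-1 and HCT116 were used, with 8 libraries in 4 groups of 2. The DLD-1 cells carry mAID-mClover on POLR2A (RPB1, the catalytic subunit of RNA polymerase II), so that auxin leads to loss of the polymerase, and they were either untreated or given 500 µM auxin for 14 h. The HCT116 cells carry TOP2A-mAID, a degron on the topoisomerase that relaxes and untangles DNA in dividing cells, and one HCT116 group in addition lacks TOP2B, the topoisomerase that also serves non-dividing cells. The HCT116 groups are thus untreated TOP2A-mAID cells and TOP2B-/- TOP2A-mAID cells, and the sources contradict each other on auxin in the latter. The sample titles call them controls, whereas the treatment entry gives 14 h of auxin and the names of their counted libraries contain aux. Loss of TOP2B and auxin treatment therefore cannot be told apart in that comparison. Degradation was started after 24 h of doxycycline, which switches on TIR1, the ligase adaptor that auxin recruits. The titles of all 8 libraries name the cells async, that is asynchronous. The labels do not say whether untreated cells received doxycycline or how many clones each line stands for. They also do not say whether the replicates came from separate cultures, so that p-values measure only the spread between these libraries.

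Integrins are heterodimers of one alpha and one beta chain that span the membrane and bind matrix proteins outside and actin or intermediate filaments inside the cell. The alpha chain largely sets the ligand: α2β1 binds collagen, α3β1 and α6β1 bind laminin, α5β1 binds fibronectin, and α6β4 anchors the hemidesmosome to laminin-332. The αV chain pairs with β1, β5, β6 or β8, and αVβ6 and αVβ8 are known for activating latent TGF-β. In the gut, α6β4 and α3β1 sit at the base of epithelial cells, and β6 is known as a chain that epithelia raise during wounding and in carcinoma.

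Promoters are shown for the members at the ends of the range of differences, ITGB1, ITGB6 and ITGB8, because ITGB6 separated the cell lines most and because ITGB1 and ITGB6 also mark the ends of base composition among the matched members. ITGB4 would belong to this set and is named only, since RefSeq promoter windows were matched for 8 of 10 members, all but ITGA3 and ITGB4. Each window runs from 250 bases before to 50 after a RefSeq start (GRCh38.p14), is written 5′ to 3′ on the strand of the gene, and has capitals where 1 of 5 searched motifs was found on either strand: the GC box with letters GGGCGG, the CCAAT box as named, the TATA box with letters TATAAA, an E-box with letters CACCTG and the AP-1 element with letters TGANTCA. No 2 of these letter strings overlapped in the windows shown.

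ITGB1, chr10:32958181-32958480, minus strand: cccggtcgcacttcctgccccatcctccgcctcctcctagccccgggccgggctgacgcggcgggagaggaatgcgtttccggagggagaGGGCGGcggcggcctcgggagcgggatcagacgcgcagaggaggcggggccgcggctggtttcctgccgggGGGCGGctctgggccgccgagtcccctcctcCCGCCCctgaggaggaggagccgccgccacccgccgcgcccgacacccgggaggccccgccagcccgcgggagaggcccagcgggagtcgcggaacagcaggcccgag

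ITGB6, chr2:160200223-160200522, minus strand: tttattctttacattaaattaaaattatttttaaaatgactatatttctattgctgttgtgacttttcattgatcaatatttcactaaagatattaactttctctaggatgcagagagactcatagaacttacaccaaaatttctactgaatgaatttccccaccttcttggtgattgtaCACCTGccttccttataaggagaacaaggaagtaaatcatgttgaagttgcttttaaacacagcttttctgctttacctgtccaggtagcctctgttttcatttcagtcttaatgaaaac

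ITGB8, chr7:20330650-20330949, plus strand: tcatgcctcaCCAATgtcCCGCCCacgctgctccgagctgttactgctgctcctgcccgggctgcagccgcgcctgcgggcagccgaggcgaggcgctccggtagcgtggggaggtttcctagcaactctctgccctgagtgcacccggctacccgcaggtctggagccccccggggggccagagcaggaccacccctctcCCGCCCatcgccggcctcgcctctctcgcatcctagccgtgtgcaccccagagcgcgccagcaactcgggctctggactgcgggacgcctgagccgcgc

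The ITGB1 window was 78.3% G and C with 3 GC boxes, and the ITGB8 window was 71.7% with 2 GC boxes and 1 CCAAT. The ITGB6 window was 31.7% G and C, a value reached or undercut by 1.95% of 35116 promoters, and held a single CACCTG, 70 bases before the start. The other 5 matched members lay between 69.3% (ITGA5) and 75.7% (ITGB5), against a median of 58.7% over all promoters. GC boxes were found in 6 of the 8 matched windows and in 45.0% of all promoters, CCAAT in 34.6%, CACCTG in 20.6%, TATAAA in 11.5% and TGANTCA in 7.71%. ITGA5 alone among the members carried TGANTCA. A match is a string of letters and not a shown binding site. Each matched gene has 1 to 3 RefSeq windows, of which the one nearest the counted model was taken, and the ITGB8 window starts transcription 202 bases before the counted model does.

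Library totals ranged from 36906755 to 62626875 counts in untreated DLD-1, from 10739622 to 14183633 after auxin, and from 32129400 to 36491540 over the 4 HCT116 libraries. A background was read from 3111 silent genes, the models of at least 5000 bp that had the fewest reads per kb on their chromosome in the other line, without chromosome Y. At their median density, background would fill 2.24% and 9.02% of the counts in the untreated DLD-1 libraries and 39.5% and 59.5% after auxin, against 0.27% to 3.04% in HCT116. As a check of the labels, TOP2B had 135 and 132 CPM (counts per 1000000 counts of the library, whose size is scaled by the trimmed mean of M-values, TMM) in TOP2B-/- cells and 186 and 192 CPM in TOP2A-mAID cells (log2 fold change -0.50 ± 0.04 SE, edgeR adjusted p = 0.027). Reads over the whole gene body do not test which part of TOP2B was deleted. The degron acts on protein, so POLR2A (159 and 108 CPM after auxin, 281 and 180 before) and TOP2A (634 and 634 CPM in TOP2B-/- cells, 642 and 704 in TOP2A-mAID cells) check no label. In bulk libraries such as these, fewer cells of a type and less RNA per cell cannot be told apart. Of 10 epithelial markers, 7 to 9 exceeded 3 times the background in every library. All 7 blood and endothelial markers lay at or under 2 times background in both untreated DLD-1 and both TOP2B-/- libraries. In either auxin library 6 did, and in the TOP2A-mAID libraries 6 and 4. In TOP2A-mAID replicate 2, KDR, CSF1R and PECAM1 reached 5.97, 5.10 and 4.61 times background, on 24, 26 and 28 reads.

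Untreated cells set the levels against which the rest is read. In DLD-1, per kb of gene, the laminin receptor chain ITGA3 was the highest member at 16.9 ± 2.99 CPM per kb (SD, n = 2), followed by ITGB4, the hemidesmosome chain, at 13.0 ± 3.04, and the 2 libraries of these genes overlapped. ITGA6, the partner of ITGB4, had 8.27 ± 0.86 CPM per kb. ITGAV (6.14 ± 0.49) and the common partner ITGB1 (5.90 ± 0.29) overlapped each other as well. The collagen receptor chain ITGA2 had 4.56 ± 0.52 and the fibronectin receptor chain ITGA5 had 2.49 ± 0.37 CPM per kb. The 3 partners that only αV takes closed the order, with ITGB5 at 1.48 ± 0.13, ITGB6 at 1.42 ± 0.11, overlapping it, and ITGB8 at 1.11 ± 0.07 CPM per kb. All other neighbours in this order did not overlap between their 2 libraries. Among all genes tested in DLD-1, ITGA3 stood at percentile 98.5 and ITGB8 at percentile 59.1 of untreated CPM per kb.

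In untreated HCT116 cells ITGB4 (27.8 ± 3.26 CPM per kb) and ITGA3 (25.9 ± 2.12) again led and overlapped. They were followed without overlap by ITGB1 (7.52 ± 0.33), ITGA6 (5.25 ± 0.18), ITGA5 (3.70 ± 0.45), ITGAV (1.84 ± 0.08), ITGB8 (1.61 ± 0.02), ITGA2 (1.15 ± 0.04) and ITGB5 (1.01 ± 0.03). ITGB6 came last at 0.013 ± 0.009 CPM per kb, which is close to background. ITGA3 and ITGB4 are also, with ITGA5, the members with the shortest counted models, at 34.5, 36.4 and 24.0 kb against 58.0 to 125.4 kb for the others, and the part that length has in the order was not tested. All reads of a member were counted over its full span, introns included.

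**Figure D1:**
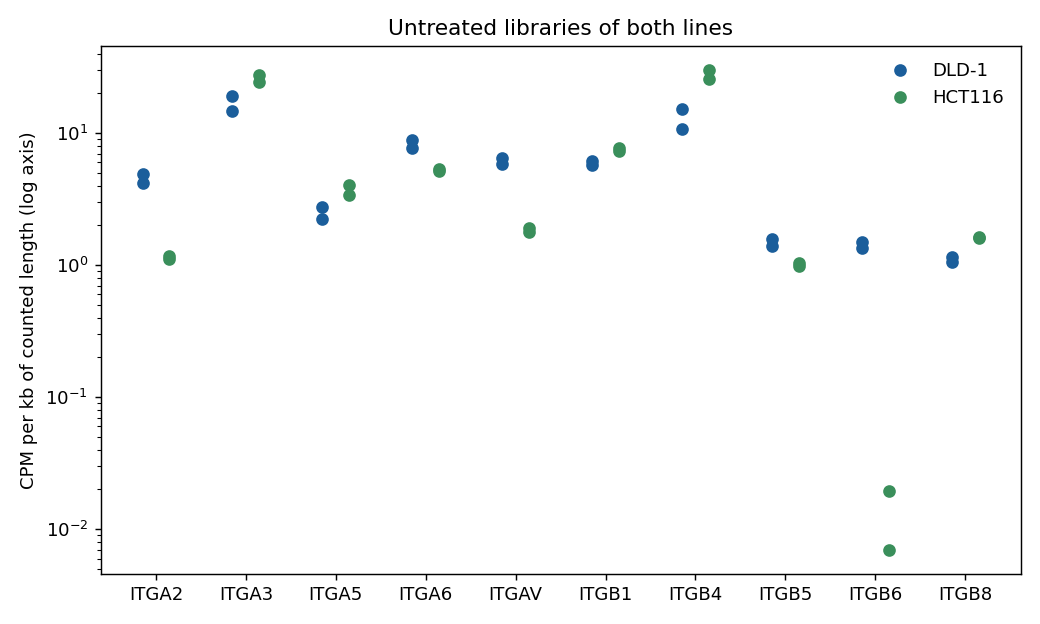
Untreated libraries of DLD-1 (blue) and HCT116 (green), 2 points per line, with CPM per kb of counted length on a log axis, scaled within each line. ITGA3 and ITGB4 lie highest in both lines, and ITGB6 is at 1.42 CPM per kb in DLD-1 and at 0.013 in HCT116.

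The untreated libraries of both lines were then compared directly. Of 10 members, 3 were higher in DLD-1 than in HCT116 (ITGB6, ITGA2 and ITGAV), 5 were lower (ITGB4, ITGA3, ITGA5, ITGB8 and ITGB1) and 2 did not pass the test (ITGA6 and ITGB5), at an edgeR quasi-likelihood adjusted p of 0.05. Over all 15820 genes tested, 17.5% were called higher and 28.5% lower. Values in the next paragraphs are CPM scaled over these 4 libraries, and the lines also differ in tagged gene and were counted in separate tables whose library names follow different schemes. Line, tagged gene and any handling that differed between the tables cannot be told apart.

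ITGB6, the epithelial TGF-β activating chain, showed the widest gap. It had 121 and 108 CPM in DLD-1 and 2.02 and 0.67 CPM in HCT116, with no overlap (log2 difference 6.42 ± 0.60 SE, adjusted p = 0.0051). The HCT116 values rest on 66 and 25 reads, 1.26 and 2.93 times the density of silent genes, so that the size of the fold is uncertain and reached 8.26 on the log2 scale once background was subtracted. In DLD-1 the same gene had 7298 and 4131 reads, 59.1 and 14.1 times background. ITGA2, the collagen receptor chain, had 418 and 352 CPM in DLD-1 and 121 and 119 CPM in HCT116 (1.68 ± 0.12, adjusted p = 0.0033). ITGAV, the chain that ITGB6 depends on, had 474 and 420 CPM against 167 and 165 CPM (1.43 ± 0.10, adjusted p = 0.0034). The αV chain and its β6 partner thus both had more reads in the DLD-1 libraries.

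The members lower in DLD-1 were led by ITGB4, with 444 and 314 CPM against 957 and 1046 CPM in HCT116 (-1.40 ± 0.23, adjusted p = 0.015). ITGA3 had 529 and 407 CPM against 869 and 904 CPM (-0.92 ± 0.19, adjusted p = 0.025). ITGA5 had 53.2 and 42.6 CPM against 83.8 and 92.2 CPM (-0.88 ± 0.14, adjusted p = 0.015). The last 2 of this set are beta chains. ITGB8, the other chain that activates TGF-β, had 72.2 and 77.9 CPM against 139 and 131 CPM (-0.85 ± 0.07, adjusted p = 0.0045). ITGB1 had 285 and 264 CPM against 436 and 429 CPM (-0.66 ± 0.09, adjusted p = 0.011). ITGB8 therefore lay on the opposite side from ITGB6, although both pair with αV.

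ITGA6 had 564 and 482 CPM against 417 and 405 CPM (0.35 ± 0.13, adjusted p = 0.098) and ITGB5 had 159 and 139 CPM against 128 and 124 CPM (0.25 ± 0.09, adjusted p = 0.10). The libraries of the lines did not overlap for either gene, as for all other members. Each was called by DESeq2 and on library totals alone, and neither was called without the filter on low counts. The partners of α6β4 thus differed in direction, with only the β4 side passing. All 10 members kept their direction in all 9 alternative analyses. DESeq2 called all 10 members, where it called 8285 of 15820 genes. ITGA3 was not called without untreated HCT116 replicate 2 (-0.97, edgeR adjusted p = 0.066).

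Genes listed as ligands and linkers were counted in the same comparison, where 17.5% of all genes were called higher in DLD-1 and 28.5% lower. Of 17 tested matrix ligands, 8 were higher in DLD-1 and 3 lower (median log2 difference 1.24, against 0.00 over all genes). Higher ones included TNC (tenascin-C, 5.54), TGFB2 (3.51) and COL4A1 (3.50), whereas COL1A1 (-6.18), TGFB1 (-1.39) and LAMB3, a chain of laminin-332 (-1.07), were lower. In HCT116, TNC had 36 and 3 reads (0.70 and 0.36 times background) and COL4A1 96 and 33 (1.16 and 2.46 times). In DLD-1, COL1A1 had 24 and 32 reads (1.12 and 0.63 times), so that the sizes of these values are uncertain. LAMB2, the highest matrix ligand per kb in both lines, had a difference of 0.58 ± 0.22 SE and was not called. Of 6 hemidesmosome and tetraspanin genes, COL17A1 (2.93) and CD9 (1.23) were higher, and PLEC (plectin, -2.04), DST (dystonin, -1.46) and CD82 (-1.09) were lower. Of 23 genes of the integrin adhesion complex, 5 were higher, led by TNS3 (3.44), TNS4 (1.74) and LIMS1 (1.72), and 8 were lower, led by FERMT2 (kindlin-2, -3.05), ACTN4 (-1.94) and ACTN1 (-1.58). FLNA, the highest of this list per kb in both lines, was not called (-0.64 ± 0.43 SE). Among 16 other integrin genes ITGA9 (2.42), ITGA1 (1.73), ITGB7 (1.64) and ITGA10 (0.90) were higher and ITGA7 (-1.03) was lower.

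Some markers of cell type also differed between the lines. Of 9 tested epithelial markers 4 were higher in DLD-1, among them VIL1 (4.62), CDH1 (E-cadherin, 4.09) and CDX2 (3.56), and KRT19 was lower (-1.07). Of 5 tested mesenchymal markers PDGFRB was higher (3.17) and ZEB1, a repressor of CDH1, lower (-2.50). In HCT116, PDGFRB had 26 and 10 reads (1.19 and 2.80 times background) and VIL1 had 21 and 8 (1.33 and 3.10 times). In DLD-1, PDGFRB lay at 5.39 and 1.56 times background and ZEB1 at 4.12 and 1.80 times. KRT18, the epithelial marker highest per kb in both lines, was not called (-0.18). Of 5 tested blood and endothelial markers 0 were called by edgeR, 0 had an unadjusted p under 0.05 and DESeq2 called 0. The part of these marker differences in those of the integrin genes was not tested.

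**Figure D2:**
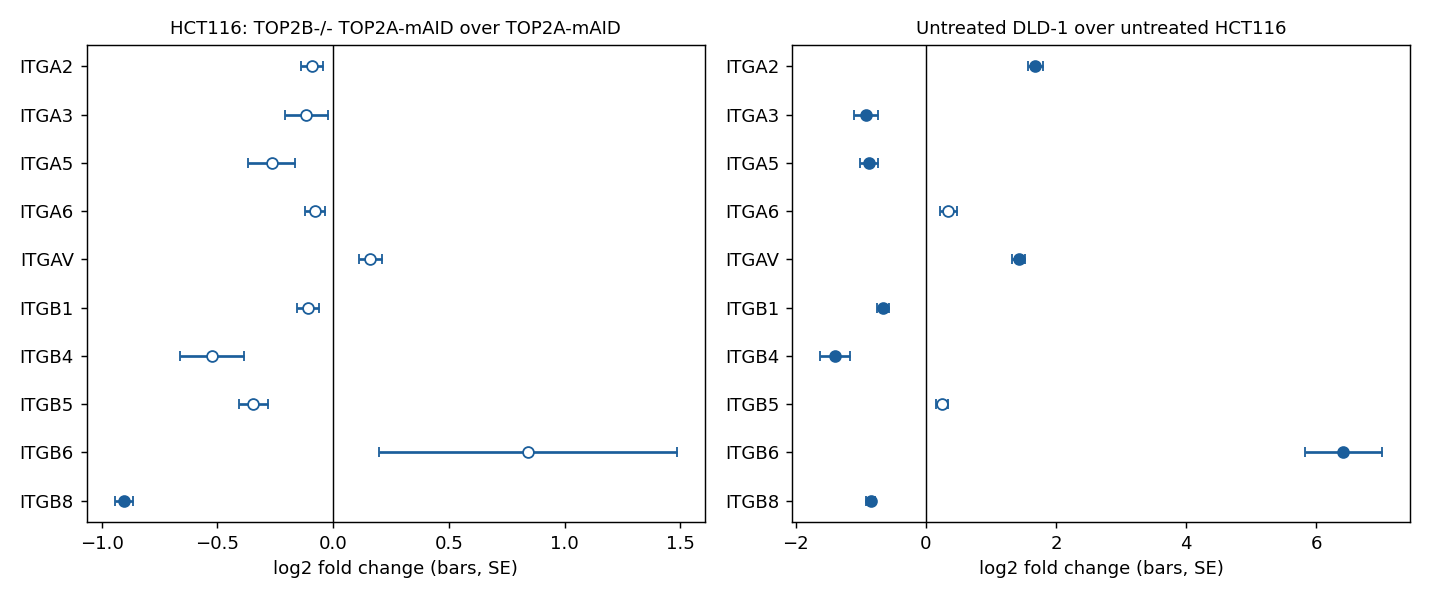
Log2 fold change of each member with its SE, for TOP2B-/- TOP2A-mAID over TOP2A-mAID HCT116 cells (left) and untreated DLD-1 over untreated HCT116 (right), with filled points for members called at an adjusted p of 0.05. Only ITGB8 is filled on the left (-0.90), and ITGB6 lies at 6.42 on the right.

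The DLD-1 comparison asked what becomes of nascent RNA once RPB1 is degraded. Of 10 members, 7 were called lower after auxin and 0 higher with TMM scaling, where 35% of 17625 genes were called lower and 32.2% higher. No member was higher at an unadjusted p under 0.05 either, and DESeq2 also called 7 lower and 0 higher, against 34% and 35.1% of all genes. The median of the members was -0.88 on the log2 scale and that of all genes -0.06. Counts here are shares of a library, so that a loss common to all genes is not seen. These counts depended on the scaling: with library totals alone 0 members were lower and 2 higher, against 19.2% and 42.8% of all genes, whose median was 0.57. After subtraction of background 2 members were lower and 4 higher, against 32.1% and 27.7% of 14355 genes, whose median was -0.16. Leaving out a library moved the counts of members and of all genes. Without auxin replicate 1 the test called 0 members and 2393 genes, without auxin replicate 2 it called 1 member and 3165 genes, against 11855 genes with all libraries. Without untreated replicate 1 it called 4 members and 11559 genes, and without untreated replicate 2 it called 7 members and 12732 genes. The fold changes stayed of similar size without auxin replicate 1, for example -1.58 for ITGB4, -1.11 for ITGA5 and -1.08 for ITGA2, and without auxin replicate 2 they were -1.15, -0.93 and -0.68. In these fits the single library of a group is assumed to vary like the other group.

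ITGB5, ITGB6 and ITGB8, the 3 beta chains that pair with αV alone, lay lower after auxin under every alternative run. ITGB8 had 40.0 and 43.6 CPM after auxin and 89.6 and 97.6 CPM in untreated cells, without overlap (-1.16 ± 0.16 SE, called). ITGB6 had 73.8 and 74.3 CPM after auxin and 150 and 135 CPM before (-0.95 ± 0.16, called). These 2 were the members still called lower once background was subtracted, at -1.53 for ITGB8 and -0.48 for ITGB6. Their reads after auxin were close to background, at 1.67 and 1.27 times the silent density for ITGB8 and 2.58 and 1.82 times for ITGB6. ITGB5 had 123 and 96.2 CPM after auxin and 198 and 174 CPM before (-0.76 ± 0.20, called), and stood at 3.46 and 1.89 times background. It was not called with background subtracted (-0.16). Relative to the median of all genes, ITGB8 stood at -1.10 with TMM and at -1.37 after subtraction, and ITGB6 at -0.88 and -0.32. For ITGB5 these values were -0.70 and 0.0007. Library totals in place of TMM move all genes nearly alike, so that these distances hardly change and are no separate check.

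ITGAV and ITGB1, which can pair with each other, did not pass the test in either direction with TMM. ITGAV had 731 and 498 CPM after auxin and 589 and 527 CPM before, so that the groups overlapped (0.14 ± 0.25, not called), and it kept 28.3 and 13.5 times the background density. ITGB1, the common beta chain, had 505 and 365 CPM after auxin against 354 and 330 CPM (0.35 ± 0.22, not called), with 30.7 and 15.5 times background. Both were called higher with library totals alone (0.77 and 0.98) and after background subtraction (1.38 and 1.60). Relative to the median of all genes, the value of ITGB1 was 0.41 with TMM and 1.76 after background subtraction.

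Among the alpha chains that pair with β1, ITGA5 had 31.5 and 25.9 CPM after auxin and 66.0 and 53.4 CPM before (-1.06 ± 0.21, called), with 4.61 and 2.65 times background. ITGA2 had 301 and 213 CPM against 519 and 441 CPM (-0.90 ± 0.24, called), and its value turned to 0.19 when background was subtracted. ITGA3 had 383 and 259 CPM against 657 and 510 CPM (-0.86 ± 0.27, called), and turned to 0.39, then called higher. The groups of these 3 genes did not overlap, as for every member but ITGAV, while the sign for ITGA2 and ITGA3 changed when background was subtracted. ITGA3 kept the largest multiple of background after auxin, 39.1 and 18.5 times.

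The 2 chains of the hemidesmosome integrin did not take the same values. ITGB4 had the largest difference of all members, with 214 and 148 CPM after auxin against 551 and 394 CPM before (-1.38 ± 0.28, called), and -0.18, not called, with background subtracted. ITGA6 had 562 and 393 CPM against 700 and 604 CPM (-0.45 ± 0.25, not called). It turned to 0.19 with library totals alone and to 0.78, called higher, with background subtracted. Of the members 6 of 10 held their direction in all 10 alternatives, namely ITGA5, ITGB4, ITGB5, ITGB6 and ITGB8 downward and ITGB1 upward. With background subtracted, however, ITGA5, ITGB4 and ITGB5 lay near the median of all genes, at -0.050, -0.012 and 0.0007 from it.

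**Figure D3:**
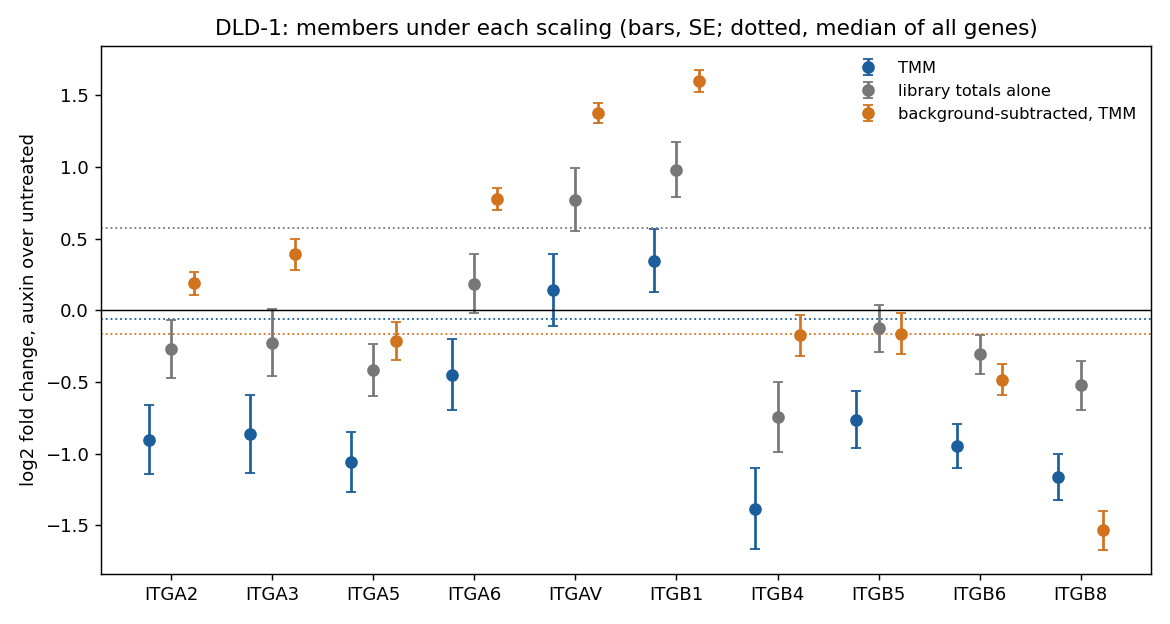
Log2 fold change of each member in DLD-1, auxin over untreated, with SE, under TMM (blue), library totals alone (grey) and background-subtracted counts with TMM (orange), and dotted lines at the median of all genes under each. ITGB6 and ITGB8 stay below 0 in all 3, ITGA2 and ITGA3 rise above 0 after subtraction, ITGA6 rises above 0 with library totals and after subtraction, and ITGAV and ITGB1 are above 0 throughout.

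**Figure D4:**
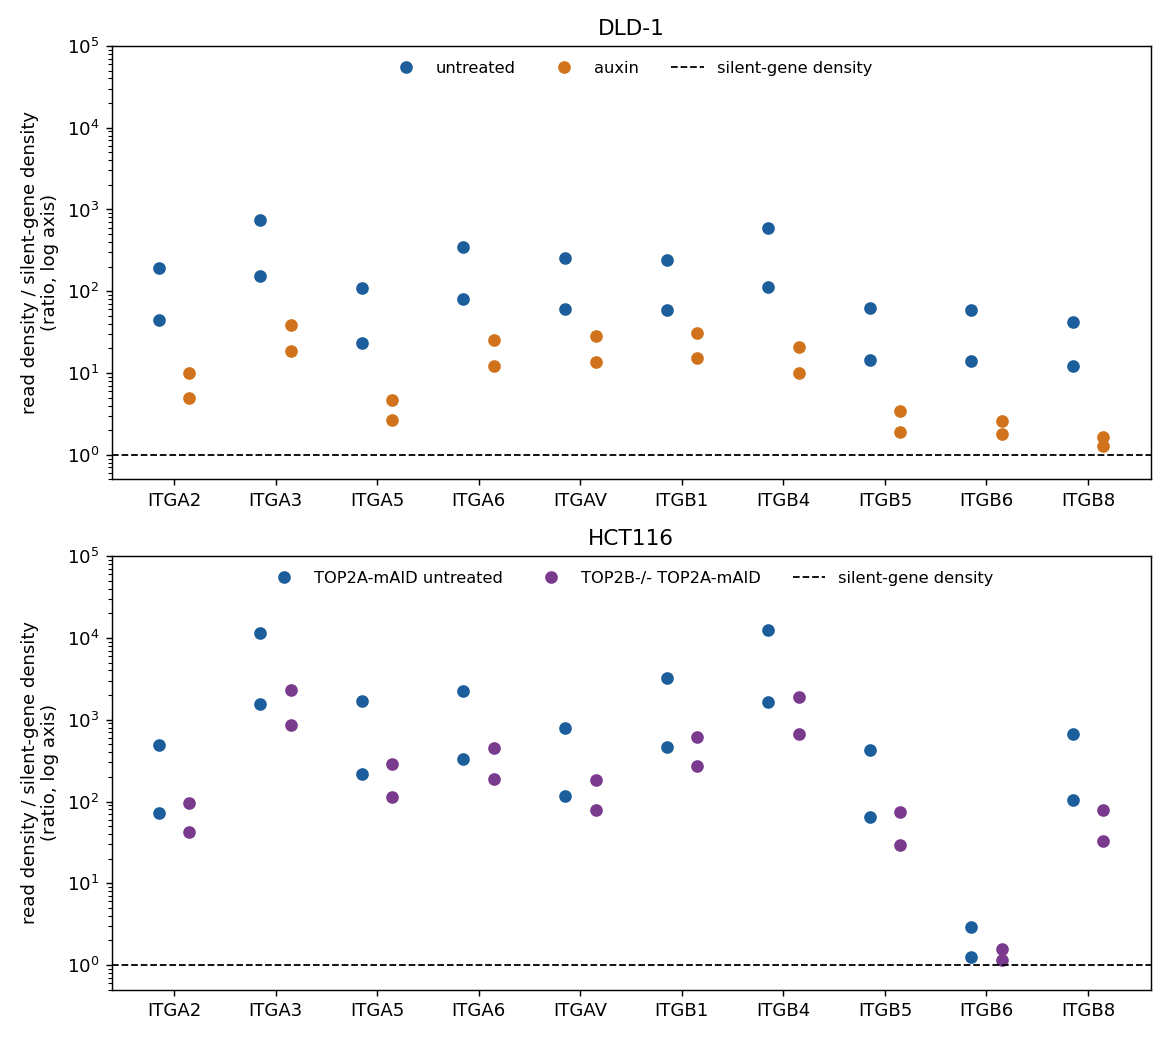
Reads per counted base of each member over the median density of silent genes, on a log axis, for the 2 libraries of each group in DLD-1 (top) and HCT116 (bottom), with the dashed line at a ratio of 1. After auxin the members lie between 1.27 and 39.1 times background, and ITGB6 stays between 1.15 and 2.93 in HCT116.

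Partners and ligands were described in the same fit, where 35% of all genes were called lower and 32.2% higher. Of 23 adhesion complex genes, 15 were lower after auxin and FERMT2 (1.77) was higher, with a median of -1.28. The lower ones were led by TNS4 (-4.01), TNS3 (-3.20) and PTK2 (focal adhesion kinase, -2.04), whose reads fell to 1.07 to 1.93 times background in the auxin libraries. FLNA, the highest of the list per kb, had -0.05 ± 0.36 SE and was not called. Of 6 hemidesmosome and tetraspanin genes PLEC (-1.87), DST (-1.61) and CD151 (-0.97) were lower and 0 higher. Of 18 matrix ligands 6 were lower, led by LAMA5 (-1.69), LAMB3 (-1.64) and TGFB2 (-1.63) and including LAMB2 (-0.93), and 7 were higher, led by SPP1 (2.53), FN1 (2.27) and COL1A1 (2.23). These last 3 genes were at 0.51 to 0.89 times background after auxin. The split of these lists moved with the scaling. On library totals 12 adhesion complex genes were lower and 3 higher, 2 hemidesmosome and tetraspanin genes lower and 3 higher, and 3 ligands lower and 8 higher. After background subtraction these counts were 9 and 4, 2 and 2, and 4 and 5 of 13 ligands tested.

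The 16 other integrin genes, most of which belong to blood cells or muscle, gave 14 called higher and 0 lower, with a median of 2.45 and the largest values at ITGAM (3.37), ITGAD (3.04) and ITGAX (2.71). Their reads after auxin were 0.71 to 5.30 times background in replicate 1 and 0.70 to 2.43 times in replicate 2, and ITGA10, the highest per kb in untreated cells, was not called (0.70 ± 0.32). On library totals 15 of 16 were higher, and after subtraction 11 of 13. Mesenchymal markers (6 of 6 called higher, led by TWIST1 at 3.56, COL3A1 at 2.89 and VIM at 2.61) were at most 1.55 times background after auxin. Blood and endothelial markers (5 of 7 called higher, led by PECAM1 at 4.29, CDH5 at 2.89 and PTPRC at 2.59) were at most 2 times background except PECAM1, at 4.81 and 2.49 times. Epithelial markers gave 5 lower, led by CDX2 (-3.51), CLDN4 (-3.30) and KRT18 (-1.72), and 1 higher, CDX1 (2.85), which was at 0.47 and 0.89 times background. Here too the split moved, to 4 lower and 3 higher on library totals and to 2 lower and 4 higher of 9 tested after subtraction. The summed markers ran from 6.55 to 23.9 CPM of the library totals for blood and endothelium and from 27.6 to 54.4 for mesenchyme in untreated cells, and from 195 to 208 and from 198 to 264 after auxin. The share of background reads rose with auxin beside every one of these values, and its part in them was not tested apart from the subtraction.

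**Figure D5:**
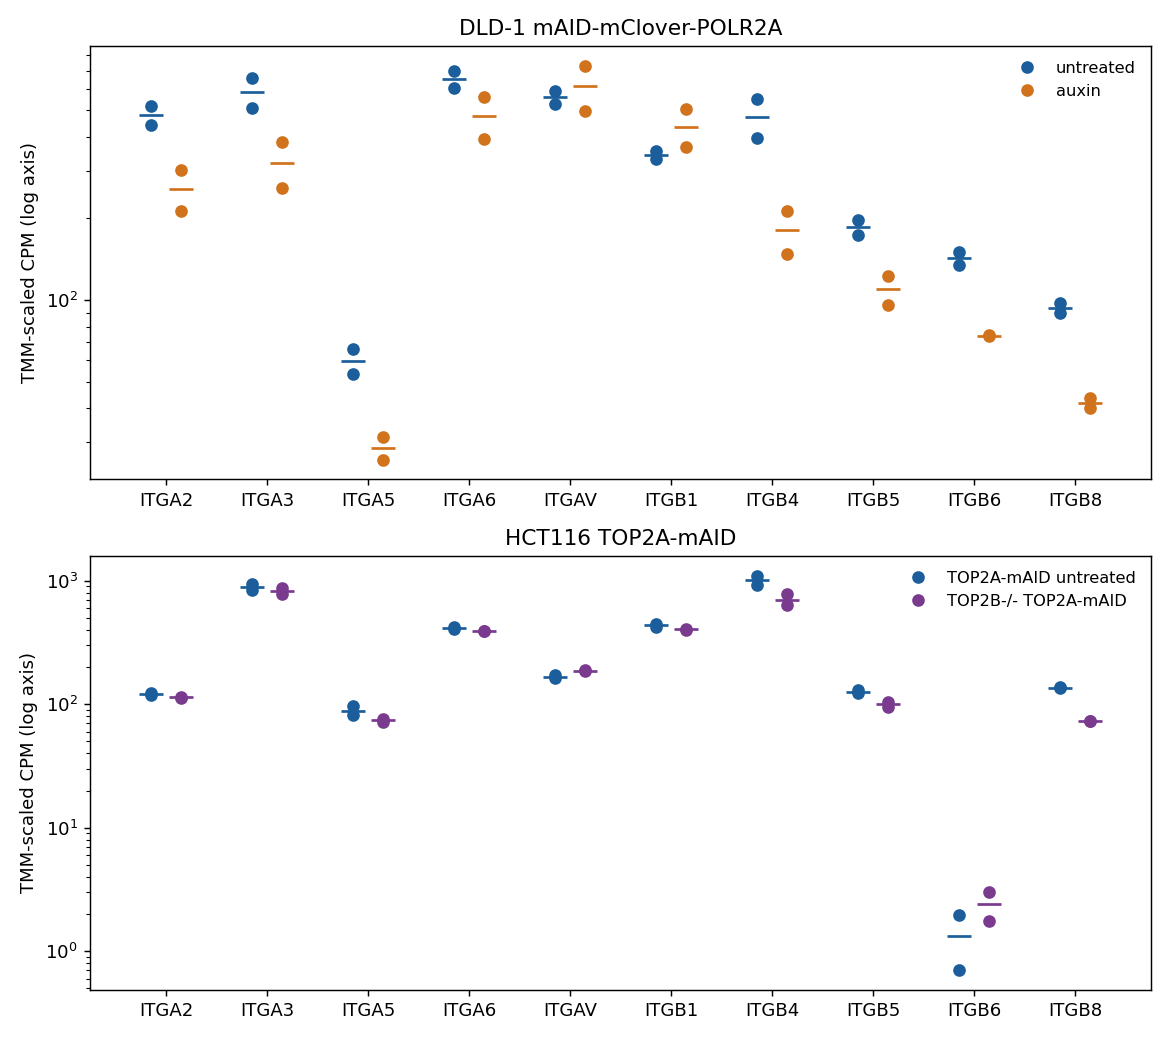
TMM-scaled CPM of each member on a log axis, 1 point per library and a bar at the mean of 2, for DLD-1 (top, untreated blue and auxin orange) and HCT116 (bottom, TOP2A-mAID blue and TOP2B-/- TOP2A-mAID purple). With this scaling the DLD-1 groups of ITGAV overlap, and in HCT116 ITGB8 goes from 135 and 137 to 73.0 and 72.5 CPM.

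In HCT116 the comparison asked how nascent RNA differs in TOP2B-/- TOP2A-mAID cells. Of 10 members 1 was called lower, ITGB8, and 0 higher, where 1.66% of 15273 genes were called lower and 1.75% higher. At an unadjusted p under 0.05, 3 members were lower and 1 higher, where 3492 of the 15273 genes passed in either direction. DESeq2 called 5 members lower and 1 higher, against 11.9% and 9.65% of all genes. ITGB8 had 73.0 and 72.5 CPM in TOP2B-/- cells against 135 and 137 CPM in TOP2A-mAID cells (-0.90 ± 0.04 SE), and replicates of a group differed by far less than the groups. This value lay at percentile 1.07 of all genes tested. It was between -0.96 and -0.88 in all 11 alternatives and was called in 8, the exceptions being both analyses that left out a TOP2B-/- replicate (-0.95 without replicate 1 and -0.90 without replicate 2, the count of called members being 0 in either) and the one that took the replicate number as a block. Without TOP2A-mAID replicate 1 the count was 4.

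Of the members well above background, ITGB4 and ITGB5 came next in size. ITGB4 had 775 and 632 CPM against 928 and 1096 CPM (-0.52 ± 0.14, not called) and ITGB5 had 104 and 95.3 CPM against 124 and 129 CPM (-0.35 ± 0.06, not called). Neither gene overlapped between groups, but neither did ITGA2, ITGA6 and ITGB1 with smaller differences, and the share over all genes was not counted. DESeq2 as well as the fit on background-subtracted counts called both ITGB4 and ITGB5 lower. ITGA5 had 76.6 and 71.3 CPM against 81.3 and 96.5 CPM (-0.27 ± 0.10, not called). ITGAV, the partner of ITGB8, was the member above background with the opposite sign, with 186 and 189 CPM against 162 and 173 CPM (0.16 ± 0.05, not called).

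The remaining laminin and collagen receptor chains and ITGB1 differed by 0.12 or less on the log2 scale. ITGB1 had 401 and 409 CPM against 423 and 450 CPM (-0.11 ± 0.05), and ITGA3 had 875 and 776 CPM against 843 and 946 CPM (-0.12 ± 0.09) with overlapping groups. ITGA2 had 113 and 115 CPM against 118 and 124 CPM (-0.09 ± 0.05) and ITGA6 had 393 and 392 CPM against 404 and 424 CPM (-0.08 ± 0.04). ITGB6 had 1.76 and 3.02 CPM against 1.96 and 0.71 CPM (0.84 ± 0.64), near background at 61, 99, 66 and 25 reads, so that no difference could be read at this depth.

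In HCT116 the counts for genes around the integrins differed between edgeR and DESeq2, which over all genes called 11.9% lower and 9.65% higher. Of 23 adhesion complex genes TNS4 (-0.62), SRC (-0.56) and VCL (vinculin, -0.55) were lower and 0 higher by edgeR, with 5 lower and 2 higher at an unadjusted p under 0.05, and DESeq2 called 5 lower and 2 higher. Among the genes listed as matrix ligands 1 of 17 was called, TGFB2, with 20.6 and 23.6 CPM against 8.65 and 7.10 CPM (1.49 ± 0.16, edgeR adjusted p = 0.036). DESeq2 called 2 higher and 4 lower. Of 6 hemidesmosome and tetraspanin genes 0 were called by edgeR, 2 had an unadjusted p under 0.05 and DESeq2 called 3. Of 16 other integrin genes 0 were called by edgeR or DESeq2 and 0 had an unadjusted p under 0.05. The genes highest per kb in these lists were not called, with FLNA at -0.27, LAMB2 at -0.62, PLEC at -0.19 and ITGA10 at 0.07. CDH1 was lower (-0.69) and ZEB1 higher (0.80), and KRT18 had -0.52 and was not called. Of 9 tested epithelial markers edgeR thus called 1 lower and DESeq2 6, and 7 were lower at an unadjusted p under 0.05. Of 6 mesenchymal markers edgeR and DESeq2 each called 1 higher, and 3 were higher and 0 lower at an unadjusted p under 0.05. After background subtraction 3 of 4 tested were called higher, where 2289 of 13573 genes were called. Of 5 tested blood and endothelial markers 0 were called by edgeR, by DESeq2 or at an unadjusted p under 0.05. Summed mesenchymal markers were 146 and 122 CPM of the library totals in TOP2A-mAID cells and 240.2 and 239.6 CPM in TOP2B-/- cells, of which ZEB1 alone made up 140.2, 120.4, 233 and 228 CPM and the other 5 markers 5.69, 1.81, 7.48 and 11.6 CPM. Among these 5, VIM had 33 and 30 reads in TOP2A-mAID cells and 100 and 80 in TOP2B-/- cells. TWIST1 had 9 and 9 reads against 30 and 33. The summed epithelial markers were 4103 and 4990 against 3327 and 2999.6 CPM. Whether these marker differences bear on ITGB8 was not tested.

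No member shares bases with another counted gene model. RefSeq places antisense or embedded genes within ITGA2, ITGA5, ITGA6, ITGB1, ITGB4, ITGB5 and ITGB8, among them ITGA2-AS1, GALK1 and ITGB8-AS1, and since no source read here states the use of strand in counting, reads of such genes cannot be told apart from those of the member. In the files' hg38 coordinates the member that separated the lines most, ITGB6, was counted over chr2:160099666-160200313 on the minus strand, and ITGB8 over chr7:20331102-20415759 on the plus strand.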

How the data were processed

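The 10 members and all gene lists were chosen with earlier results of these data known. The authors deposited raw read counts per gene model (hg38), in 1 table for each cell line. The members were counted over their whole span with introns, whereas 1443 of 18638 models were counted over less than their span. STAR and DESeq2 are named in the submitters' processing notes, without versions, and the strand setting is not stated. The 8 libraries were grouped by the labels. Counts were tested with edgeR 4.0.16 (R 4.3.3): filterByExpr, TMM, quasi-likelihood F-test, Benjamini-Hochberg adjustment over all genes tested, two-sided, threshold 0.05, each comparison fitted on its own 4 libraries. No p-value is given for members within a line. The SE beside an edgeR log2 fold change is its absolute value divided by the square root of the F statistic. It is thus derived from the test and not estimated apart from it. Overlap of groups was read for listed genes only, and its share over all genes was not counted. Background was the median read density of the 20% of models (at least 5000 bp) with the fewest reads per kb in untreated libraries of the other line. These models were ranked within each chromosome, and chromosome Y was left out. Genes named from the other lists were up to 3 called genes of largest change in each direction and the gene highest per kb in untreated cells. Alternatives were DESeq2 1.42.0, library totals alone, no filter, a mean CPM of at least 5, background-subtracted counts, a replicate block and leaving out each library. The scripts were tested on simulated data. Totals of 10739622 to 62626875 counts limit the precision of low genes. Same-numbered replicates deviated with a correlation of 0.56 in DLD-1 and -0.82 in HCT116 over 2 pairs each, so the numbers were not taken as pairing. The genome given for reference was of another build and not used. Protein sequences were not used here.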

Additional observations from a re-analysis of the deposited data

How the results depend on the processing

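In DLD-1 the count of called members was 7 in the main analysis, 2 with library totals alone, and 0 to 7 with 1 library left out, while 11855, 10921 and 2393 to 12732 of all genes were called. With the replicate number as a block it was 7, where 12963 of 17625 genes were called. Single members that changed sign were ITGA2 (0.19), ITGA3 (0.39) and ITGA6 (0.78) with background subtracted, ITGA6 (0.19) with library totals alone, and ITGAV (-0.067) without auxin replicate 1. A mean CPM of at least 5 gave 5 calls, 1 higher and 4 lower, where 8817 of 13446 genes were called. In HCT116 the count was 1, against 6 with DESeq2, 2 with a mean CPM of at least 5, 3 with background subtracted and 0 to 4 with 1 library left out. With the replicate number as a block it was 0, where 0 of 15273 genes were called by edgeR and 2177 had an unadjusted p under 0.05, and DESeq2 without a block called 3295. With crossed replicate numbers as a block, chosen after seeing the data, it was 3, with 1808 genes called. All genes called in HCT116 were 521 in the main analysis, 1221 with a mean CPM of at least 5, 2289 with background subtracted and 0 without either TOP2B-/- library, where 2266 and 1286 genes had an unadjusted p under 0.05. Leaving out TOP2A-mAID replicate 1 gave 2519. Between the lines 8 members were called in the main analysis and 10 with DESeq2, where 7286 and 8285 of 15820 genes were called. With 10% in place of 20% of models as silent, ITGB6 in TOP2B-/- cells moved to 1.69 times background. Causes of these changes were not tested. Depth limits ITGB6 in HCT116, at 25 to 99 reads, and background limits ITGB8, ITGB6 and ITGB5 in DLD-1 after auxin.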
